A study of Mus musculus with 12 samples.

Results

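The oligoadenylate synthetase family of the mouse was followed in the spleens of 12 BALB/c mice, through all probe sets of the array that the platform annotation gives to exactly 1 of the genes Oas1a, Oas1b, Oas1c, Oas2, Oas3, Oasl1 and Oasl2. Each of the 7 genes had 1 probe set, so the family is 7 of the 45037 probe sets that are not array controls, and 7 of 18193 genes named by a single symbol. Spleen RNA from 1 mouse was hybridised to each Affymetrix array. The groups were Il1rn-deficient mice (ko) at 4 months, wild-type mice (wt) at 4 months, ko mice at 1 month and wt mice at 1 month, with 3 mice in each. Il1rn encodes the IL-1 receptor antagonist, and BALB/c mice without it develop arthritis. The labels give neither the structure of the mutant allele nor the number of backcrosses, and nothing in them says whether mice of a group shared a litter. The p-values below therefore measure the spread between these mice.

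The oligoadenylate synthetases are interferon-induced enzymes that detect double-stranded RNA. On binding it they join ATP into short chains with 2'-5' linkages, and these chains switch on RNase L, which cuts viral and cellular RNA. The Oas1 genes of the mouse are a tandem array of recent duplicates beside Oas2 and Oas3. Oas1a is an active synthetase. Oas1b is the flavivirus resistance gene, which carries a premature stop codon in most laboratory strains. Oas1c belongs to the duplicates without known synthetase activity. Oas2 and Oas3 encode larger enzymes built from repeated synthetase units. Oasl1 and Oasl2 carry ubiquitin-like domains. Oasl1 limits translation of the interferon regulator Irf7, and Oasl2 has kept synthetase activity in the mouse.

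The 7 genes were chosen by family name, and the contrast of Oas1a and Oas1b with the rest was selected on their ko against wt signal differences at both ages. Those differences are therefore given as a description, without a test. The change with age was not used for that choice and was tested. Whether the genotype effect itself changed with age was also tested. For Oas1a and Oas1b that test sets the differences used for the choice against each other, so it is not independent of the choice. All signals below are scaled signals per probe set, each array having a trimmed mean of 500. Levels of different probe sets are not set against each other. Log2 differences are on the scale of log2(signal + 32), which makes differences between low signals smaller, and their standard errors (SE) come from limma.

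The array median signal was 113 to 147, and 52.1% to 59.2% of probe sets reached a signal of 100. By their brightest probe set the arrays formed a low set of 6 (33427 to 37921) and a high set of 6 (51247 to 68987). The low set held the 3 ko mice of 1 month and 1 mouse of each other group. The most affected of the 3 Il1rn probe sets had signals of 40.8, 10.1 and 14.8 in ko at 4 months, against 188, 161 and 278 in wt at 4 months. At 1 month it had 23.6, 40.6 and 5.64 in ko, against 163, 143 and 120.5 in wt. A second Il1rn probe set was also lower in every ko array than in any wt array of the same age, but was not called (limma adjusted p = 0.0739 at 4 months and 0.382 at 1 month). The third overlapped between genotypes at both ages (limma adjusted p = 0.543 and 0.411). Markers of splenic B cells, T cells and resident macrophages were all present, with no marker of these 3 lists below a signal of 100 on every array. The summed signal of 7 pancreas markers was 1691 to 136336 in wt at 4 months, its highest value being that of replicate 2, and 1316 to 2548 in the other groups.

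Oas1a signal was low in every ko spleen and high in every wt spleen. At 4 months it was 34.2, 86.4 and 19.9 in ko, against 773, 654 and 787 in wt. At 1 month it was 183, 97.1 and 60.4 in ko, against 936, 1296 and 887 in wt. The groups did not overlap at either age, and over both ages the lowest wt array stood 3.57-fold above the highest ko array. The mean was 46.8 ± 35.0 in ko and 738 ± 73.6 in wt at 4 months, and 114 ± 63.1 in ko and 1039 ± 223 in wt at 1 month (SD, n = 3 each). The ratio of wt to ko means was 15.8 at 4 months and 9.15 at 1 month. On the log2 scale Oas1a differed by -3.37 (SE 0.31) at 4 months and by -2.95 (SE 0.31) at 1 month.

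Oas1b showed the same division. At 4 months its signal was 28.5, 22.8 and 4.68 in ko, against 282, 388 and 348 in wt. At 1 month it was 13.8, 24.8 and 110.5 in ko, against 506, 351 and 482 in wt. Again no ko array reached a wt array, and over both ages the lowest wt array stood 2.55-fold above the highest ko array. The log2 difference was -2.90 (SE 0.36) at 4 months and -2.72 (SE 0.36) at 1 month, with ratios of wt to ko means of 18.2 and 8.98. For both genes 5 of the 6 ko arrays were below a signal of 100, where single values carry little precision, and detection calls were not used here. Both genes passed the filter on low signals through the wt arrays. The exact size of the difference accordingly moved with the offset: at 4 months, an offset of 1 gave -4.20 for Oas1a and -4.41 for Oas1b, and an offset of 64 gave -2.90 and -2.29.

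**Figure D1:**
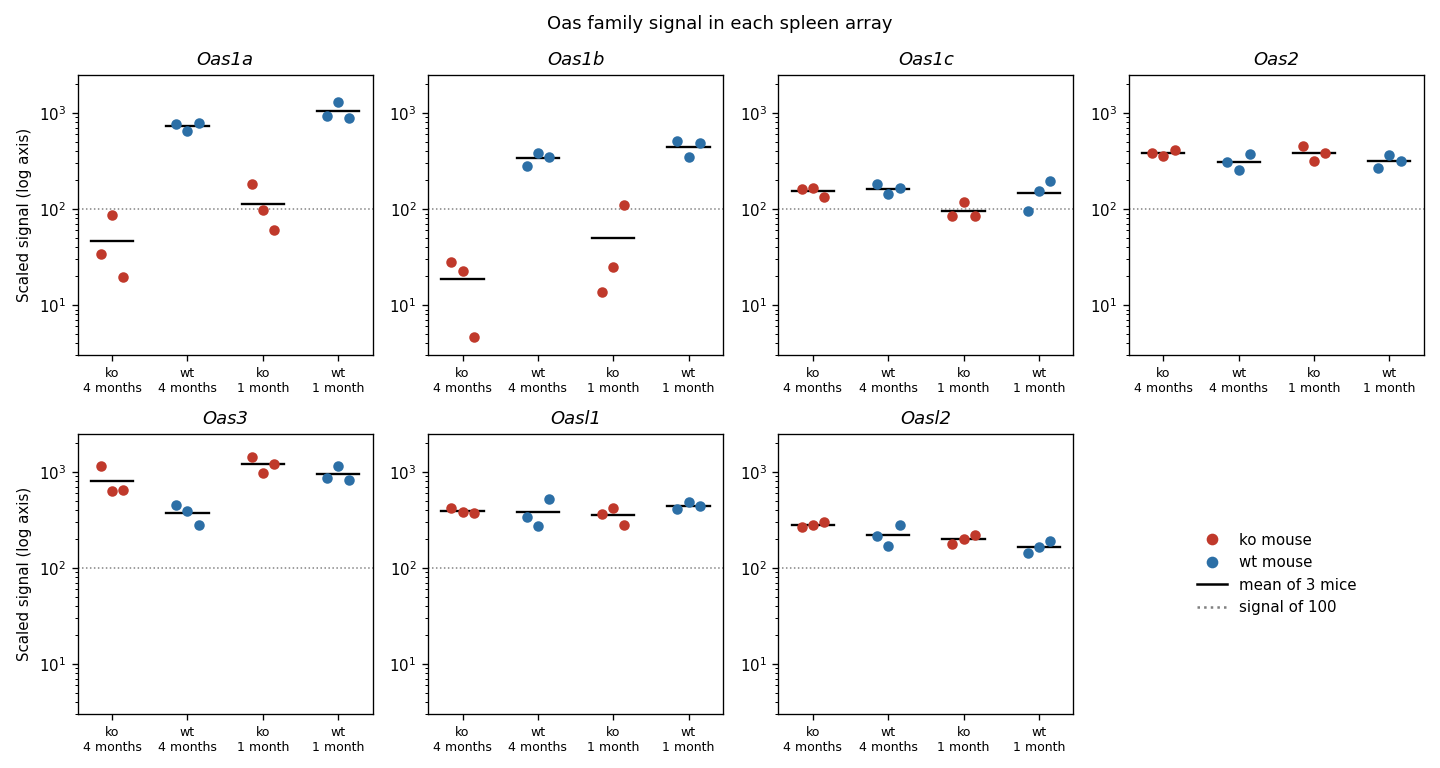
Scaled signal (log axis) of the 7 Oas family genes in each of 12 spleen arrays, by group; points are mice, black lines are means of 3 mice and the dotted line marks a signal of 100. Oas1a and Oas1b lie at 183 or less in every ko array and at 282 or more in every wt array, while the other 5 genes overlap between genotypes except Oas3 at 4 months.

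The division was present within each array set that held both genotypes. Within the low set Oas1a differed by -2.79 at 4 months (1 ko and 1 wt array) and by -2.75 at 1 month (3 ko arrays and 1 wt array), and within the high set by -3.67 at 4 months (2 arrays each). Oas1b differed by -2.80 and -2.84 within the low set and by -2.95 within the high set. No ko array at 1 month was in the high set. Signals of cell type markers also moved with genotype. The summed signal of 10 neutrophil markers was 52173 to 69490 in ko and 9711 to 14649 in wt at 4 months, and 128106 to 158432 in ko and 44356 to 54655 in wt at 1 month. That of 4 B cell markers was 30275 to 36979 in ko and 38199 to 44304 in wt at 4 months, and 16611 to 19982 in ko and 23383 to 25277 in wt at 1 month. The part of cell composition in the Oas1a and Oas1b values was not tested, and in whole spleen fewer cells of a type cannot be told apart from less RNA per cell.

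Of the other 5 members, Oas3 stood apart between genotypes, and it did so at 4 months and in the opposite direction. It had 1145, 631 and 652 in ko at 4 months, against 452, 390 and 279 in wt at 4 months. The 1-month arrays had 1430, 977 and 1200 in ko, against 866, 1138 and 813 in wt. The 4-month groups did not overlap and the 1-month groups did. In log2 units Oas3 differed by 1.02 (SE 0.23) at 4 months and 0.34 (SE 0.23) at 1 month, and the 4-month value was 1.09 within the low set and 0.99 within the high set. By group means Oas3 was highest in ko at 1 month and lowest in wt at 4 months. The wt arrays at 4 months lay below those of every other group, and those other groups overlapped each other.

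Oas2 had 383, 358 and 408 in ko at 4 months, against 310, 253 and 372 in wt. In the 1-month mice it had 452, 315 and 384 in ko, against 266, 367 and 320 in wt. Its genotype differences were 0.28 at 4 months and 0.25 at 1 month (SE 0.19 each), with overlap at both ages. Oasl2 had 265, 279 and 304 in ko at 4 months, against 217, 171 and 277 in wt, and 176, 201 and 218 in ko at 1 month, against 142, 167 and 189 in wt. Its differences were 0.33 and 0.22 (SE 0.20 each). Both genes overlapped between genotypes at each age.

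Oasl1 and Oas1c leaned the other way at 1 month, again with overlapping arrays. Oasl1 had 417, 380 and 375 in ko at 4 months, against 338, 275 and 525 in wt. Among 1-month mice it had 362, 420 and 282 in ko, against 409, 481 and 443 in wt. The differences were 0.08 and -0.31 (SE 0.21 each). Oas1c, which lies next to Oas1b, had 162, 165 and 135 in ko at 4 months, against 181, 143 and 167 in wt. The 1-month signals were 85.6, 118 and 84.5 in ko, against 96.4, 156 and 194 in wt. Its differences were -0.07 and -0.47 (SE 0.25 each), so this neighbour of Oas1b overlapped between ko and wt arrays at both ages. At 1 month 2 of its ko arrays and 1 of its wt arrays were below a signal of 100. Within the low set, with 1 wt array at each age, Oas1c differed by -0.014 at 4 months and -0.83 at 1 month. Within the high set it differed by -0.10 at 4 months.

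In all, 3 of the 7 members did not overlap between genotypes at 4 months (2 lower in ko and 1 higher), where 22.3% of the probe sets tested did not overlap, 11.4% lower and 10.9% higher. At 1 month 2 of the 7 did not overlap, both lower in ko, where the share was 19.9%, and 11.9% lower. The lower members at both ages were Oas1a and Oas1b, which were singled out on these differences and passed the filter through wt arrays. Their part in these counts is therefore no support for the division. The median log2 difference of the 5 paralogues other than Oas1a and Oas1b was 0.28 at 4 months and 0.22 at 1 month, beside -0.0097 and -0.035 over all probe sets tested. Within the low set, with 1 wt array at each age, it was -0.014 at 4 months and 0.059 at 1 month, and within the high set 0.45 at 4 months. Of the 3 wt arrays at 4 months, replicate 2, the array with the pancreas signal, was the lowest for 5 of the 7 members (Oas1a, Oas1c, Oas2, Oasl1 and Oasl2). Without it the 4-month difference was 0.16 for Oas2, 0.18 for Oasl2 and -0.10 for Oasl1.

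In the gene order of the C57BL/6J assembly GRCm38.p6, chromosome 5 holds Oas2, Oas3, Oas1e, Oas1c, Oas1b, Oas1f, Oas1h, Oas1g, Oas1a and Oas1d as one cluster, and Oasl2 and Oasl1 elsewhere on the same chromosome. That assembly lists Oas1b as a transcribed pseudogene. Oas1f, Oas1h and Oas1g lie between Oas1b and Oas1a. Probe sets of Oas1e, Oas1f, Oas1h and a shared one of Oas1d and Oas1e did not pass the filter. Each of these 4 was below 100 on every array except wt replicate 1 at 1 month for Oas1e (211), Oas1f (209) and Oas1h (126), wt replicate 1 at 4 months for Oas1e (177) and ko replicate 3 at 4 months for Oas1f (106). Oas1g had no probe set of its own. Oas1a and Oas1g are near copies, and as the probe sequences were not used here, how far the Oas1a probe set also detects Oas1g is not known.

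Genes flanking the 2 groups of Oas genes were measured where the array allowed. The 5 nearest annotated genes on each side of each group were looked up. Of these, 7 had a tested probe set, the brightest being taken: Rita1, Ddx54, Dtx1, Ptpn11 and Rpl6 beside the main cluster, and 2210016L21Rik and Sppl3 beside Oasl1. Dtx1 is a Notch pathway regulator, Ptpn11 encodes the phosphatase SHP2 and Rpl6 a ribosomal protein. None of the 7 was called at either age (limma adjusted p at least 0.264), where 2.3% of all probe sets were called at 4 months and 0.444% at 1 month. Their log2 differences were -0.40 to 0.33 at 4 months and -0.30 to 0.43 at 1 month.

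**Figure D2:**
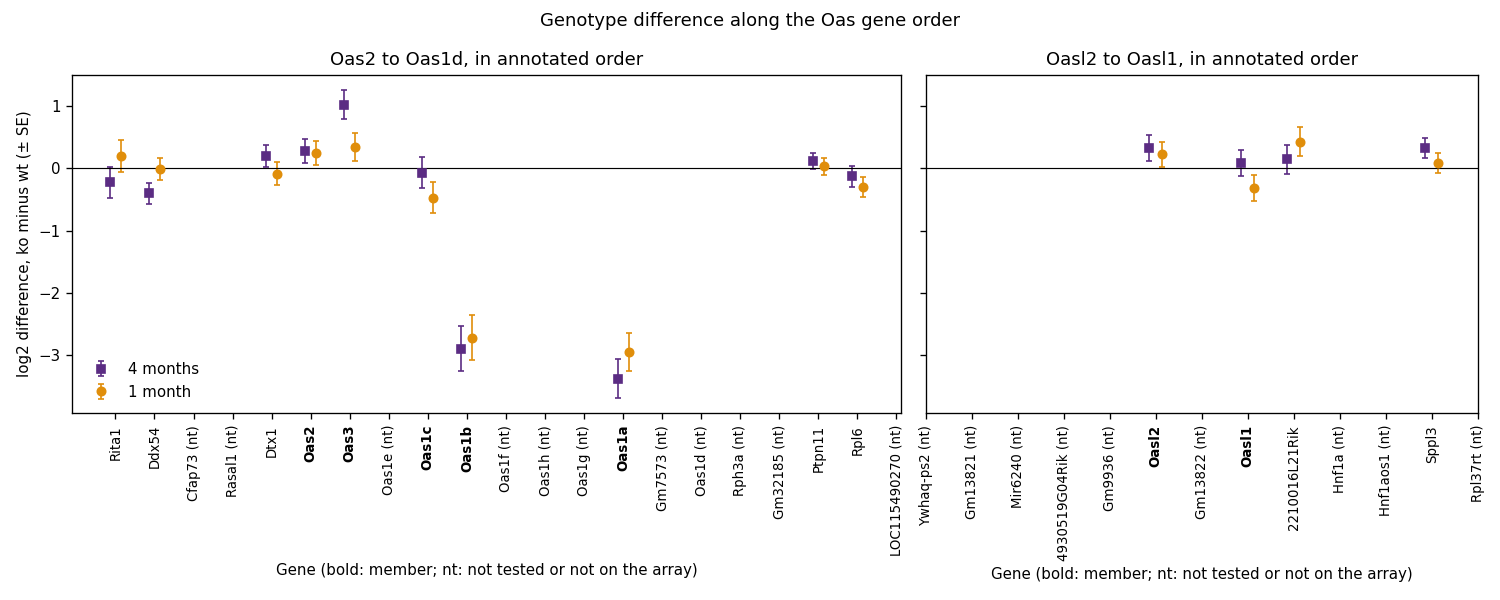
Log2 difference, ko minus wt (± SE), of genes in annotated order along the Oas cluster and the Oasl pair; squares are 4 months and circles 1 month, members are in bold and nt marks genes not tested or not on the array. Oas1b and Oas1a lie between -2.72 and -3.37, and all other tested genes between -0.47 and 1.02.

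Sequence before the annotated starts was searched for the interferon motif. The interferon-stimulated response element holds 2 GAAA repeats, and the motif searched was GAAA, any 2 bases and GAAA again, on both strands, in windows of 250 bases before to 50 after the start. RefSeq windows (GRCm38.p6) were found for 5 of the 7 members, and 3 of these held the motif, Oas1a, Oas1c and Oas3, as did Oas1g. The windows of Oasl1 and Oasl2 held no match. Oas1b and Oas2 had no window and were not searched, so whether Oas1b carries the motif is not known here. Over all 32851 windows, 3.44% held it. The last 120 bases before the start are shown 5' to 3' on the gene's strand, with every match in capitals, because they set Oas1a beside its near copy and beside 2 paralogues that did not follow it.
Oas1a (chr5:120907526-120907645, minus strand): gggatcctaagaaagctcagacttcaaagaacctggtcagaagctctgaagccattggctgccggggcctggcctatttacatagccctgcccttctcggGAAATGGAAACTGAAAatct
Oas1g (chr5:120887614-120887733, minus strand): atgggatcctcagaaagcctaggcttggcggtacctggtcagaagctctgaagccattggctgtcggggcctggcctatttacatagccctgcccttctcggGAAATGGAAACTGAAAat
Oas1c (chr5:120812515-120812634, minus strand): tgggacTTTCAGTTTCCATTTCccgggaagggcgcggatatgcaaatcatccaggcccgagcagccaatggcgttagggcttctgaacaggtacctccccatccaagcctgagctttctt
Oas3 (chr5:120777660-120777779, minus strand): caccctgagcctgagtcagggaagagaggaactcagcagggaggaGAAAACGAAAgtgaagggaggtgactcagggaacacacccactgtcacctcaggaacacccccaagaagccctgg
In Oas1a and Oas1g the capitals are 2 overlapping matches, the first base of the upstream one lying 20 and 18 bases before the start. The Oas1c window holds 2 overlapping matches on the opposite strand, and Oas3 holds 1 match 75 bases before the start. The Oas1a and Oas1g windows were identical at 85.3% of aligned columns, against 46.7% for Oas1a and Oas1c and 41.1% for Oas1a and Oas3. Read on its own strand, the Oas1c stretch in capitals has the same bases as those of Oas1a and Oas1g. It lies on the side of Oas1c that faces Oas1b, the next gene in the order, which had no window. Which of the 2 genes it belongs to was not tested, so Oas1c is not counted here as a gene with the motif and without the division. The windows are reference sequences of C57BL/6J and not of the mice studied.

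Other genes of the interferon pathway differed less between genotypes than Oas1a and Oas1b, none of them lying below -0.8 on the log2 scale. Of 64 measured pathway genes, 2 were called at 4 months, both higher in ko, and 0 at 1 month, with limma at an adjusted p under 0.05, where 17 and 12 had an unadjusted p under 0.05. Over all probe sets 2.3% (1.78% higher) and 0.444% were called, and 15.7% and 15.8% had an unadjusted p under 0.05. Irf7, the regulator that amplifies interferon production, rose by 1.03 (SE 0.25, limma adjusted p = 0.0413) in ko at 4 months, with 3064, 1417 and 1859 in ko, against 866, 1068 and 978 in wt. Isg20, an interferon-induced exonuclease, rose by 1.15 (SE 0.21, limma adjusted p = 0.00821), with 9601, 6963 and 7510 in ko, against 3207, 5144 and 2741 in wt. Both had non-overlapping groups, as Oas3 had. At 4 months the count dropped to Isg20 alone when any 1 of 5 arrays was left out (replicates 1 and 3 of ko and 3 of wt at 4 months, replicate 3 of ko and 2 of wt at 1 month), and it was 4 without wt replicate 3 at 1 month. The count at 1 month was 6 without that last array, with Mx2 higher in ko and Ifih1, Rsad2, Trim30a, Samd9l and Phf11d lower. It was the only wt array at 1 month in the low array set, so without it genotype and array set coincide at that age. Fitting array set as a block, 5 were called at 4 months. Irf7 was not among the genes called with the replicate block, without the filter, without the intensity trend or with the 4-month arrays fitted alone, while Isg20 was called in each of these.

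The 31 measured interferon-stimulated genes outside the family had a median log2 difference of 0.023 at 4 months, with 1 called higher, and of -0.20 at 1 month, with 0 called. For 17 receptors and signal transducers the medians were -0.0071 and 0.0052, with Irf7 called at 4 months. For 12 sensors and adaptors they were 0.25 and -0.062, with 0 called. Of the genes that act on the products of the synthetases, Abce1, an inhibitor of RNase L, differed by -0.17 (SE 0.13) at 4 months and 0.30 (SE 0.13) at 1 month. Pde12 and Akap7, which can degrade the 2'-5' chains, differed by 0.10 (SE 0.14) and 0.37 (SE 0.15) at 4 months and by 0.27 (SE 0.14) and 0.10 (SE 0.15) at 1 month. None of these 3 was called. Of 9 interferon genes on the array, 1 (Ifnz) passed the filter, and it was not called in any comparison.

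**Figure D3:**
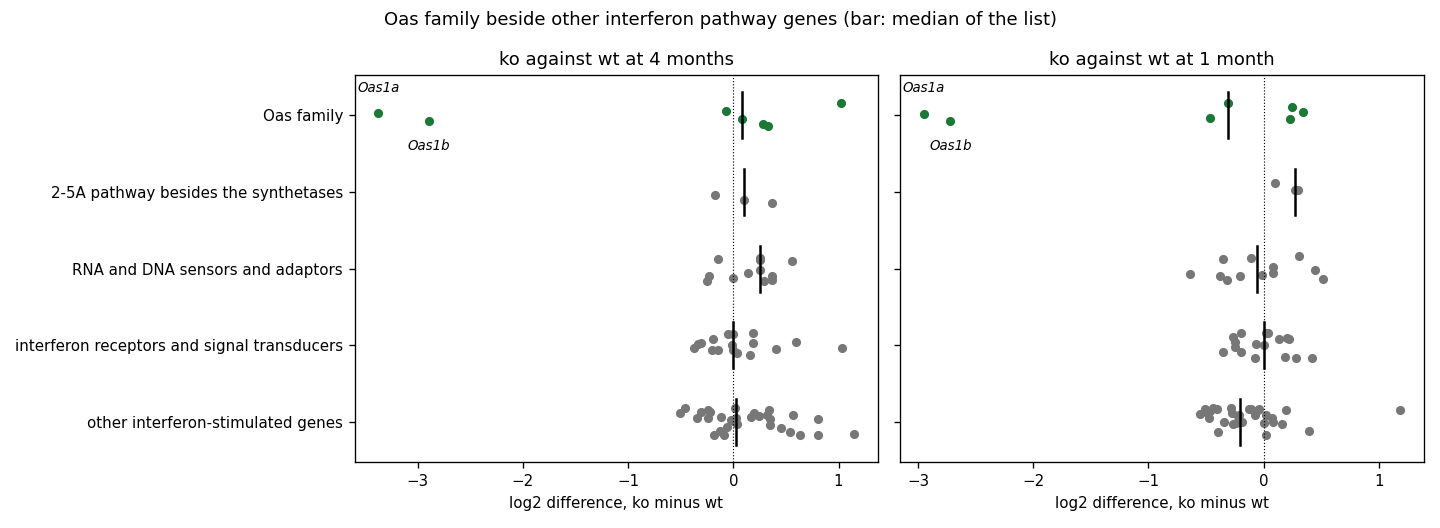
Log2 difference, ko minus wt, of the 7 Oas genes (green) and of the genes of 4 interferon pathway lists (grey), at 4 months and at 1 month; each point is a gene and each bar the median of its list. Oas1a and Oas1b are the only points below -1 among the genes drawn, and the 31 other interferon-stimulated genes have medians of 0.023 and -0.20.

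The genes whose signal over the 12 arrays ran closest to Oas1a were looked for across one probe set per gene. Likeness was the root mean square difference of log2 signals, each centred on its own mean, among 200 genes that varied at least 0.5 times as much as Oas1a. Oas1a and Oas1b differed by 0.71 by this measure. Ctps2, which encodes a CTP synthase, was nearest to both, at 0.77 from Oas1a and 0.72 from Oas1b, and G530011O06Rik was next, at 0.91 and 0.77, against a median of 2.07 and 1.82 over the genes compared. Ctps2 had 228, 196 and 151 in ko at 4 months, against 1438, 936 and 1066 in wt, and 140, 124 and 105 in ko at 1 month, against 855, 930 and 692 in wt. G530011O06Rik had 32.7, 40.8 and 6.68 in ko at 4 months, against 156, 111 and 199 in wt, and 5.80, 2.67 and 6.79 in ko at 1 month, against 125, 141 and 117 in wt. Both genes lie on the X chromosome, with 77 annotated genes between them. The other 3 nearest to Oas1a were Fabp7 (1.18), Apoa1 (1.23) and Alb (1.33), and to Oas1b Il22ra2 (1.18), Fabp7 (1.20) and Cubn (1.22). None of these 7 genes belongs to the interferon lists above. Some of them had low or uneven signals. Alb had 64.4, 89.3 and 1912 in wt at 4 months, and the highest Cubn signal, 124, was in ko replicate 2 at 4 months. G530011O06Rik passed the filter on low signals through the wt arrays. The likeness includes the genotype difference on which Oas1a and Oas1b were singled out.

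**Figure D4:**
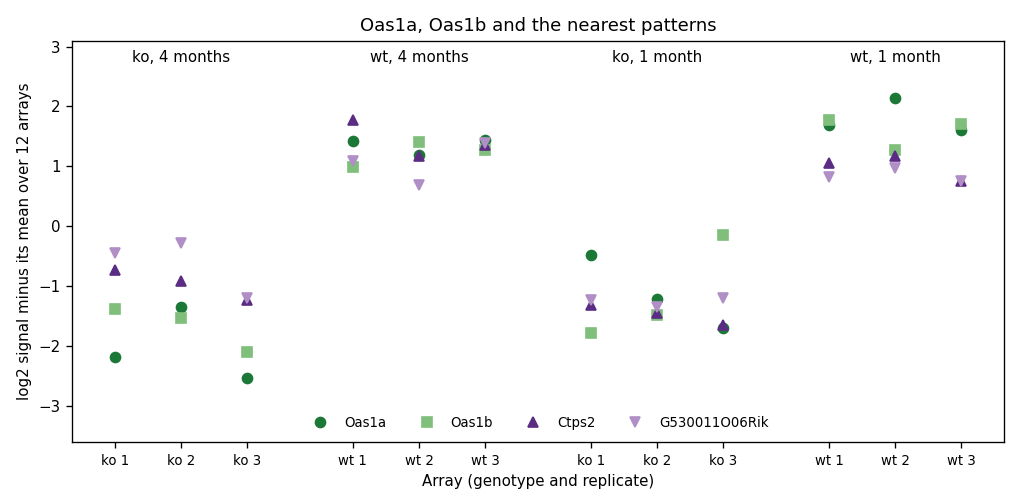
Log2 signal of Oas1a, Oas1b, Ctps2 and G530011O06Rik in each of 12 arrays, each gene centred on its mean over the arrays. All 4 genes lie below their mean in the 6 ko arrays and above it in the 6 wt arrays.

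For the mean of the 5 other paralogues, which varied little (SD 0.17 log2 units over the 12 arrays), the nearest of 12315 genes were Acer3 (0.10), Mrpl13 (0.11), Ssr3 (0.12), Parp12 (0.13) and Gtf3c3 (0.13). Parp12 is itself interferon-induced.

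With age, Oas3 changed in wt spleens. It fell to 452, 390 and 279 in wt at 4 months, against 866, 1138 and 813 in wt at 1 month, with no overlap. This was a log2 change of -1.27 (SE 0.23, limma adjusted p = 0.00119), with a mean 2.51-fold higher at 1 month. It was the one member called of 7, where 21.4% of all probe sets were called in either direction and 9.67% lower. The call held in each of the 27 alternatives tried, with limma adjusted p of 0.000384 to 0.00741. In ko spleens Oas3 had 1145, 631 and 652 at 4 months, against 1430, 977 and 1200 at 1 month, and the groups overlapped (-0.59, SE 0.23, limma adjusted p = 0.078). That comparison passed the threshold without ko replicate 1 at 4 months (-0.86, limma adjusted p = 0.0194), with array set fitted as a block (-0.87, limma adjusted p = 0.0176), with median centring (-0.74, limma adjusted p = 0.0362) and with array weights (-0.55, limma adjusted p = 0.0227).

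Of the 31 interferon-stimulated genes outside the family, 6 were called lower and 3 higher in wt with age, where 9.67% and 11.8% of all probe sets were. The median log2 difference of the 31 was 0.11, beside 0.090 over all probe sets. Isg20 fell by 1.61 (SE 0.21, limma adjusted p = 4.87e-05), Rsad2, which encodes the antiviral protein viperin, by 1.44 (SE 0.21, limma adjusted p = 0.000206) and its neighbour Cmpk2 by 1.34 (SE 0.18, limma adjusted p = 8e-05). Ifi27 fell by 0.69 (SE 0.14, limma adjusted p = 0.00317). The antigen-processing genes Tap1 and Psmb8 were among those higher, by 0.53 each. In ko spleens 9 were called higher, where 13.6% of all probe sets were, among them Tap1 (0.96, SE 0.16) and Psmb8 (0.82, SE 0.15), and 1 lower, Cmpk2 (-0.91, SE 0.18). Of 17 receptors and transducers, 9 were called higher and 1 lower in ko, and 8 higher and 1 lower in wt. The transcription factor Irf5 was higher by 0.89 in ko and 0.97 in wt, and Irf8 by 0.65 and 0.70. Usp18, which limits interferon signalling, was the lower one in both, with -0.65 in ko and -1.05 in wt.

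The genes acting on the synthetases' products were lower at 4 months in ko, all 3 called: Abce1 with -0.60 (SE 0.13, limma adjusted p = 0.00304), Pde12 with -0.56 (SE 0.14, limma adjusted p = 0.00852) and Akap7 with -0.71 (SE 0.15, limma adjusted p = 0.00342). In wt Akap7 was called (-0.98, SE 0.15, limma adjusted p = 0.000279), and Abce1 had -0.12 and Pde12 -0.39. Of 12 sensors and adaptors, 3 were called higher and 1 lower in ko, and 1 higher and 2 lower in wt. These counts, and the 3 of 3 above, stand beside 13.6% of all probe sets called higher and 9.25% lower in ko, and 11.8% and 9.67% in wt. Tlr7, an endosomal sensor of single-stranded RNA, was higher by 1.11 in ko and 0.75 in wt. Eif2ak2, the double-stranded RNA kinase PKR, had -0.92 in ko and -0.87 in wt. Sting1 (1.01) and Ddx58 (0.49, limma adjusted p = 0.049) were higher in ko. Ifih1 was lower in wt (-0.63, limma adjusted p = 0.0492), with overlap between the ages. The 3 ko arrays at 1 month were all in the low array set, and 2 of those at 4 months were in the high set. The part of array set in the ko age changes of pathway genes was not tested. Whether the age changes differ between genotypes was tested for the 64 genes together with all probe sets. With limma 0 were called, and 11 of the 64 had an unadjusted p under 0.05, beside 8.65% of all probe sets. Of the 11, 8 were among the 31 other interferon-stimulated genes. The median difference of those 31 was 0.26, beside 0.032 over all probe sets.

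The genes running closest to Oas3 over the 12 arrays, a search added after its values were seen, were not interferon genes. Among 5859 genes, the nearest were Slc43a3, a nucleobase transporter (0.28), Zgrf1, a helicase (0.28), Espl1, which separates sister chromatids (0.29), Slc4a1, the red cell anion exchanger (0.29), and E2f2, a cell cycle transcription factor (0.29), against a median of 0.86. Slc4a1 had 18223, 15991 and 18732 in ko at 4 months, against 8632, 9716 and 6097 in wt, and 20542, 24488 and 24898 in ko at 1 month, against 22009, 19762 and 20881 in wt. Like Oas3 it was lowest in wt at 4 months. The summed signal of 6 erythroid markers, Slc4a1 among them, was 57167 to 66453 in ko and 25392 to 43872 in wt at 4 months, and 74872 to 86090 in ko and 72774 to 90958 in wt at 1 month. The part of erythroid content in the Oas3 values was not tested.

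The other 6 members were not called in wt with age. Oas1a did not overlap between ages in wt, with lower signals at 4 months (-0.46, SE 0.31, limma adjusted p = 0.31), as for 13.2% of probe sets in that direction. Oas1b differed by -0.36, Oas1c by 0.15, Oas2 by -0.03, Oasl1 by -0.25 and Oasl2 by 0.34, with SE of 0.19 to 0.36. Oas2 had the age difference nearest 0 of the 7 in both genotypes, with an interval of -0.43 to 0.37 in wt and of -0.40 to 0.41 in ko.

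In ko, the one member of 7 past the threshold with age was Oas1a, where 22.9% of all probe sets were called, 9.25% lower. Its signals were 34.2, 86.4 and 19.9 at 4 months, against 183, 97.1 and 60.4 at 1 month, with overlap (-0.89, SE 0.31, limma adjusted p = 0.0482). Only 1 of these 6 arrays reached 100, and the gene had passed the filter through wt arrays, so the value compares signals near the floor and is not read as a change with age. The call was lost without ko replicate 1 or 2 at 1 month (limma adjusted p = 0.234 and 0.0907) and without ko replicate 1 or 3 at 4 months (0.144 and 0.211). It was also lost without wt replicate 1, 2 or 3 at 1 month (0.0525, 0.0513 and 0.0524) or at 4 months (0.0555, 0.056 and 0.0555), and when array set was fitted as a block (0.185). An offset of 64 (0.0664), no filter (0.0895), no intensity trend (0.0744) and fitting the ko arrays alone (0.1) also ended it. Oas1c (0.55, SE 0.25) and Oasl2 (0.45, SE 0.20) were higher in every ko array at 4 months than at 1 month, as were 28.3% of probe sets, and missed the threshold (limma adjusted p = 0.13 and 0.127). Oasl1 differed by 0.14 (SE 0.21) and Oas1b by -0.54 (SE 0.36).

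**Figure D5:**
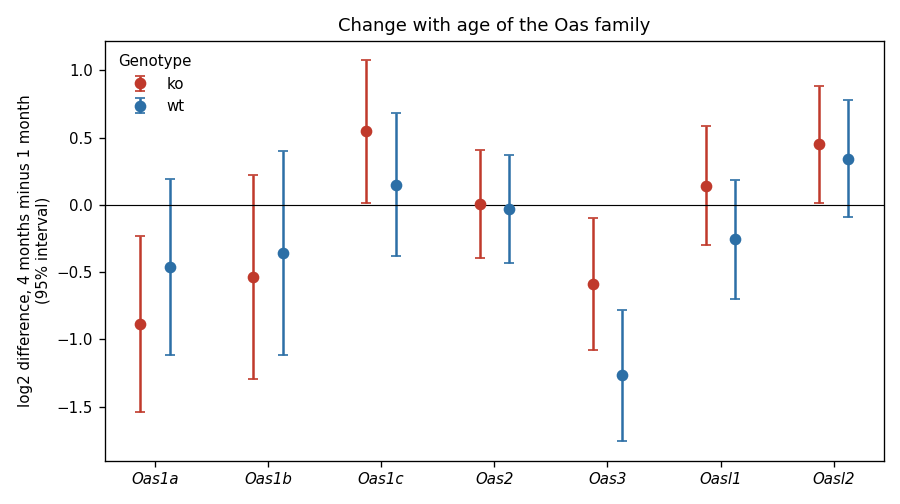
Log2 difference, 4 months minus 1 month, of the 7 Oas genes in ko and in wt spleens, with 95% intervals from limma. Oas3 in wt lies at -1.27 with its interval below 0, and the ko and wt intervals of each gene overlap.

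The genotype effect was not shown to differ between the ages for any member. None of the 7 was called for this difference with limma, and none had an unadjusted p under 0.05, where 0.0481% of all probe sets were called. The difference was -0.43 for Oas1a (95% interval -1.35 to 0.50) and -0.18 for Oas1b (-1.25 to 0.90), so a change of more than 2-fold lay inside the interval of either. For Oas1a and Oas1b it compares the differences on which they were singled out, and 5 of the 6 ko arrays of each were below a signal of 100. Oas3 had 0.68 (-0.01 to 1.37, limma adjusted p = 0.585). For Oas1c, Oas2, Oasl1 and Oasl2 it was 0.40, 0.04, 0.40 and 0.11, and each interval included 0. With 3 mice a group the test recovered 25 of 100 simulated probe sets with a log2 change of 1 and 80 of 100 with a change of 2, so most changes of the first size would be missed.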

How the data were processed

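For each of 12 arrays the authors deposited a linear signal intensity for every probe set, and the submitters' processing notes name MAS5 without a version. Scaling every array to a 2% trimmed mean of 500 left the values almost as deposited. An offset of 32 was added before log2. Of 45037 probe sets that are not controls, the 27041 with a signal of at least 100 in at least 3 arrays were tested, all 7 members among them. In the annotation 34945 probe sets have 1 symbol, 932 have several and 9160 are unnamed. Models with 4 group means were fitted to all arrays with limma 3.58.1 in R 4.3.3 (lmFit, eBayes with an intensity trend, 8 residual and 8.27 prior degrees of freedom), with 2-sided tests and Benjamini-Hochberg adjustment over all probe sets tested. A probe set was called at an adjusted p under 0.05. Promoter windows were aligned with Biopython 1.88. Members, lists and the rule for naming genes were chosen with earlier results of these data known. Named were all members, Il1rn, up to 4 called genes of each pathway list with the smallest p, flanking genes and the 5 nearest patterns. The 5 genes nearest to Oas3 and, where the text gives a sensor or factor outside the 4 smallest p of its list, that gene were named after values were seen. Gene order and promoters come from RefSeq tables of GRCm38.p6. In simulated data the test recovered 58 of 100 probe sets changed by a log2 of 1 with age in ko and 62 of 100 in wt. The number of arrays limits the precision. Alternatives are given in the closing section.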

Additional observations from a re-analysis of the deposited data

How the results depend on the processing

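Alternatives covered scaling, offset, filter, variance model, array weights, threshold, blocks, the arrays in the fit and leaving out each mouse. Averaging probe sets was not run, as each member has 1, and fitting the arrays compared alone does not change the test between ages, which uses all. Oas1a and Oas1b stayed lower in ko in each alternative. Sizes moved with the offset: at 4 months -4.20, -3.95 and -2.90 for Oas1a and -4.41, -3.83 and -2.29 for Oas1b with offsets of 1, 8 and 64, and at 1 month -3.66 and -3.35 for Oas1b with offsets of 1 and 8. Oas1a at 4 months was -2.79 within the low array set. Leaving out 1 mouse gave -3.71 to -3.12 (Oas1a) and -3.04 to -2.68 (Oas1b) at 4 months, and -3.27 to -2.66 and -3.21 to -2.39 at 1 month. The median of the other 5 paralogues was 0.38 with median centring, 0.072 with the array set as a block and 0.059 within the low set at 1 month, and -0.014 within the low and 0.45 within the high set at 4 months. Of the members, 1 was called with age in ko, and 2 with median centring or an adjusted p under 0.10, 3 with array weights, 0 with an offset of 64, no filter or no intensity trend, and 0 to 1 without 1 mouse. That count of 1 was Oas3 in place of Oas1a with the array set as a block or without ko replicate 1 at 4 months, and Oasl2 with the arrays compared alone. Of the pathway genes, 2 were called at 4 months, and 1 without the filter, without the trend or with the arrays compared alone, 5 with array weights or the array set as a block, 6 at an adjusted p under 0.10 and 1 to 4 without 1 mouse. At 1 month 0 were called, 1 at an adjusted p under 0.10 and 0 to 6 without 1 mouse. The replicate block called 4 pathway genes at 4 months (Isg20, Rsad2, Ifitm3 and Cmpk2, so that Irf7 lost its call) and changed no call of a member. Replicate numbers were not taken to pair the samples. Deviations of same-numbered arrays correlated at -0.20 to 0.21, over 0.1 in 4 of 18 pairs, beside -0.20 to 0.25 for differently numbered arrays. With 3 arrays a group these values cannot show whether mice shared a litter or a batch. Where not stated, the cause was not tested.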
